A study of Mus musculus with 4 samples.

Results

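The nuclear genes for the subunits of respiratory complex I and complex II were examined for m6A (N6-methyladenosine), the adenosine methylation found within mRNA. Genes were taken by name, as every gene with a peak whose symbol had the form Ndufa, Ndufab, Ndufb, Ndufc, Ndufs or Ndufv followed by a digit, or was Sdha, Sdhb, Sdhc or Sdhd. This gave 35 of the 6653 genes with a peak. The hearts came from C57BL/6 mice that carried an osmotic minipump for 14 days and were sampled at 2 weeks. The pump delivered either a mimic of the PIWI-interacting RNA CHAPIR (30 mg/kg) or, in the same way, a scrambled mimic (NC). In the assay, MeRIP-seq, mRNA was cut into fragments of about 100 nucleotides and the fragments bound by an m6A antibody were sequenced beside the unselected input. Each condition had 1 immunoprecipitated and 1 input library, and the authors called 1 list of peaks from each pair. The sources used here do not state the number, sex or age of the animals behind a library, or any pooling. With 1 pair of libraries a condition the spread between animals is unknown, and the differences described are between libraries, without a test.

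Complex I takes electrons from NADH and passes them to ubiquinone while it pumps protons across the inner mitochondrial membrane. Its N module binds and oxidises NADH, its Q module hands the electrons to ubiquinone, and its membrane arm pumps. Complex II (succinate dehydrogenase) oxidises succinate in the tricarboxylic acid cycle and also feeds ubiquinone, without pumping. Heart muscle depends on these enzymes for most of its ATP. In many mRNAs m6A is densest around the stop codon and in the 3' UTR, often within a GGAC context. Ndufa4 carries the family's name but is now assigned to cytochrome c oxidase. It is named apart from the complex I genes here but is counted in all totals of subunit genes.

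The CHAPIR list held 97 lines on all 35 genes and the NC list held 56 lines on 20 of them. A line is 1 peak on 1 transcript, so overlapping transcripts repeat a peak. Merged where they overlapped, the lines formed 47 peaks in the CHAPIR list and 23 in the NC list. In the CHAPIR list 25 genes had 1 merged peak and 10 genes had up to 3, and in the NC list 17 genes had 1 and Ndufb2, Ndufs1 and Ndufv1 had 2 each.

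Genome sequence under most peaks was not used here, but RefSeq gives the bases around gene starts (GRCm38.p6), and some peaks reached into that stretch. Sequence of 3 shared subunit genes is shown because it puts letters on what a shared peak and a shifted edge are in these lists. The first stretch lay inside the NC peak of Ndufs6 and beyond the edge of its CHAPIR peak on the same transcript (chr13:73328483-73328512, minus strand). The next lay inside the CHAPIR peak of Ndufa8 and beyond the edge of its NC peak (chr2:36049348-36049376, minus strand). The third lay inside the Ndufa8 peak of both lists, with the motif GGAC in capitals (chr2:36049289-36049318, minus strand). The last opens the Ndufa12 peak that began at the same base in both lists on transcript ENSMUST00000020209.15 and is annotated to coding sequence, with the opening ATG in capitals (chr10:94199045-94199084, plus strand).
Ndufs6, NC peak only: ccgccgactgctgtgcgcctgcgccggcac
Ndufa8, CHAPIR peak only: agagcagtgcgcttgcgcgtcgctggaga
Ndufa8, both peaks: ggccagccaaaggGGACttgaaggagacgg
Ndufa12, both peaks: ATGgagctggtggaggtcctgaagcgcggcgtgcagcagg
Both edge stretches lacked GGAC in the sense direction, and both lie upstream of the RefSeq start of their gene. The stretch in both Ndufa8 peaks lies within the first 50 transcribed bases. For scale there, GGAC stood in the first 50 transcribed bases of 18.9% of the 32851 RefSeq windows on the sense strand and of 17.4% on the antisense strand. These shares do not apply to the edge stretches, which are shorter and lie outside those bases. A match is only a match of letters.

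The first comparison asked which subunit mRNAs had a peak with the CHAPIR mimic and which with the scrambled mimic. Of the 35 genes, 15 were in the CHAPIR list only (42.9%, exact 95% interval 26.3 to 60.6), where 15.3% of all genes with a peak were. Another 20 were in both lists (57.1%, 39.4 to 73.7), against 53.5% of all genes. None was in the NC list only (0 of 35, an exact interval of up to 10%), against 31.3% of all genes. The NC list is the longer one, and with lists of equal length the subunit counts were again 15, 20 and 0, while the CHAPIR list alone held 24.1% and the NC list alone 19.6% of all genes. The intervals cover counting error only. Depth is unknown, and a gene absent from a list may still be methylated or expressed there.

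By part of the enzyme the groups are small, and differences between them were not tested. In the N module, 9 of 10 genes were in both lists and Ndufa7 was in the CHAPIR list only. Of the Q module genes with a peak, Ndufa5 was in both lists and Ndufs7 and Ndufa9 were in the CHAPIR list only. The membrane arm had 16 genes, 9 in both lists and 7 in the CHAPIR list only (Ndufa1, Ndufa3, Ndufb4, Ndufb5, Ndufb11, Ndufc1 and Ndufc2). Ndufab1, the mitochondrial acyl carrier protein that also sits in complex I, and Ndufa4 were in the CHAPIR list only. In complex II, Sdhd was in both lists and Sdha, Sdhb and Sdhc were in the CHAPIR list only. Neither list had a peak on other protein-coding RefSeq genes that the naming rule takes, among them the core subunits Ndufs3 and Ndufs8, the membrane arm genes Ndufa11, Ndufb1, Ndufb6 and Ndufb8, the Ndufb4 copies Ndufb4b and Ndufb4c, and Ndufa4l2.

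**Figure D1:**
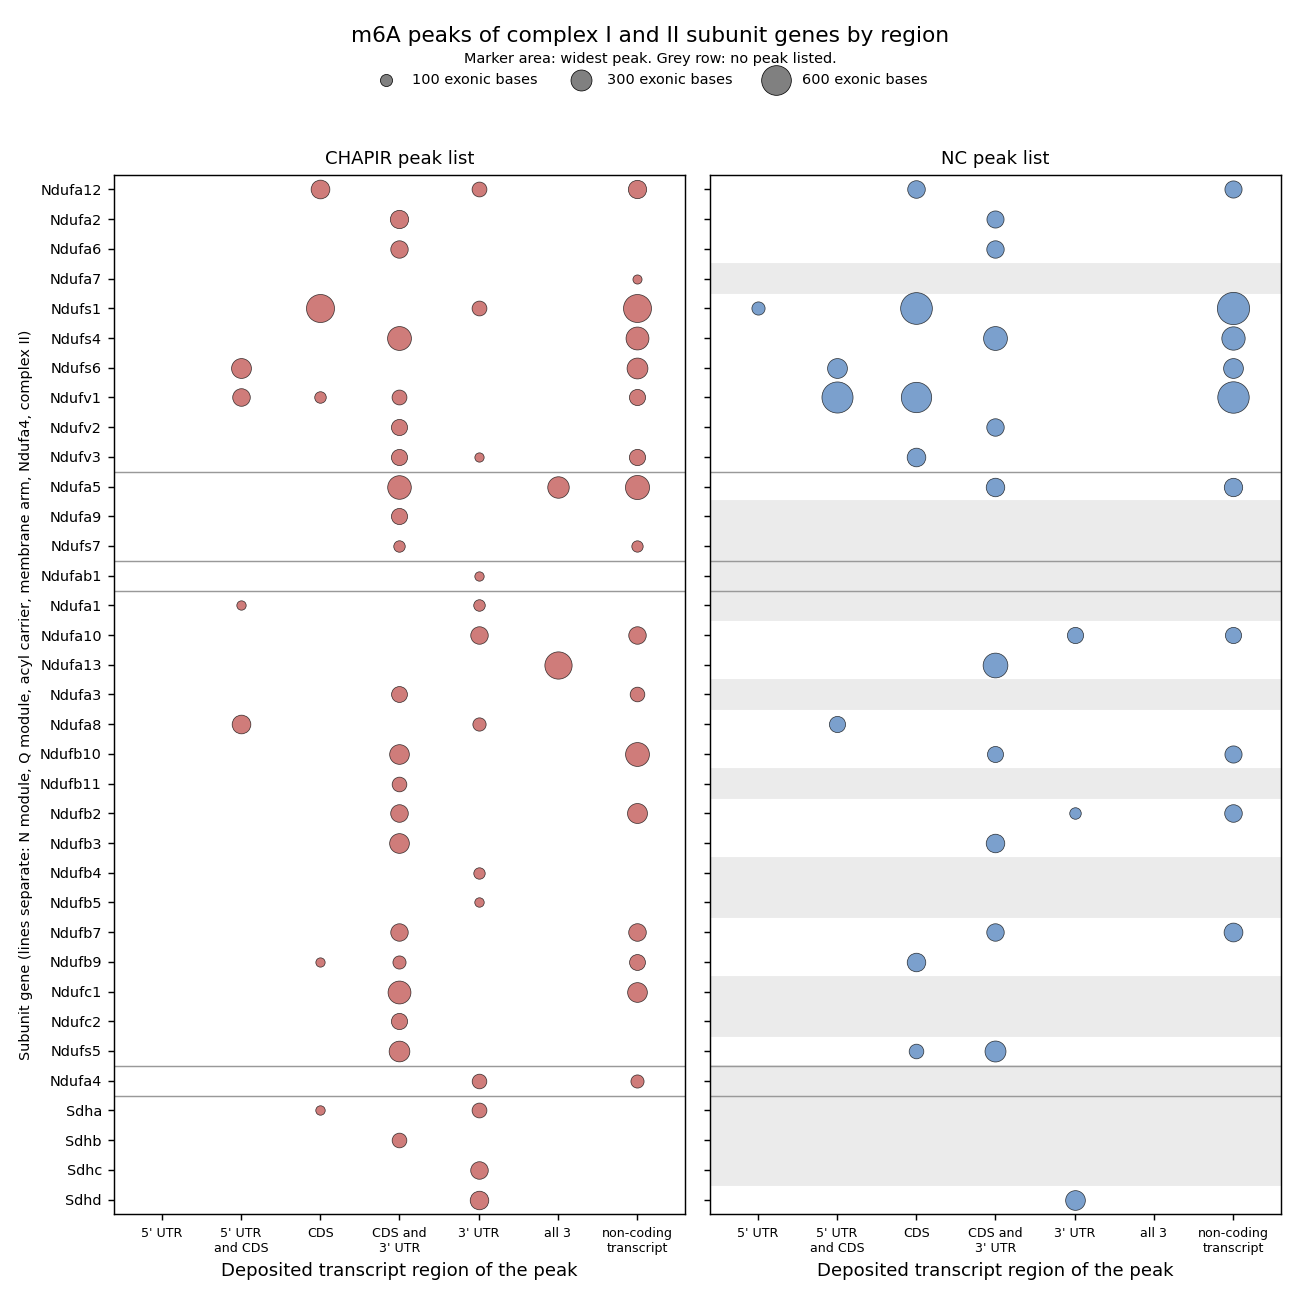
Each dot stands for peaks of 1 subunit gene (vertical axis, grouped by role) in 1 deposited transcript region (horizontal axis), in the CHAPIR list (left) and the NC list (right), and its area gives the exonic bases of the widest such peak. All 35 rows are filled on the left and 15 rows are grey, with no peak, on the right.

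In complex II, 3 of 4 genes had a peak with the CHAPIR mimic only, with the leading peak at the stop codon or in the 3' UTR. Sdhb, the iron-sulfur subunit, had a peak of 147 exonic bases across the end of its coding sequence and the 3' UTR (chr4:140979047-140979193, plus strand) in the CHAPIR list. Its authors' fold enrichment, the ratio of immunoprecipitated over input signal, was 2.99 and its authors' false discovery rate (FDR) was 1e-101, the smallest among the 15 genes. The NC list had no Sdhb peak. Sdhc, a membrane anchor, had a 3' UTR peak of 210 bases (chr1:171129139-171129348, minus strand) in the CHAPIR list at an authors' fold of 5.34 and FDR of 6.31e-47. Sdha, the flavoprotein that oxidises succinate, had a 3' UTR peak of 150 bases (chr13:74322254-74322403, minus strand) at 2.01-fold and an FDR of 3.16e-14, and a coding peak of 61 bases near the threshold (FDR 0.0145). Sdhd, the other membrane anchor, had a 3' UTR peak in both lists that ended at the same base. It covered 235 bases in the CHAPIR list (chr9:50596357-50596591, minus strand, 6.68-fold, FDR 1e-108) and 265 bases in the NC list (chr9:50596357-50596621, 3.21-fold, FDR 1e-110). The authors' folds are not scaled between lists and describe a peak within its own list.

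Among the complex I genes of the CHAPIR list alone, Ndufc1, a small membrane subunit, had a peak of 357 bases over 3 exonic blocks into the 3' UTR (chr3:51405420-51408224, minus strand) at 2.92-fold and an FDR of 1e-62. Its partner Ndufc2 had a stop codon peak of 179 bases (chr7:97407624-97407802, plus strand) at 7.37-fold and an FDR of 2.51e-35. Outside complex I, Ndufa4 had a 3' UTR peak of 146 bases (chr6:11900350-11900495, minus strand) at 8.84-fold and an FDR of 1.58e-33. Here and below a peak is called a stop codon peak where its annotation holds both coding sequence and 3' UTR. The catalytic subunit Ndufs7, which carries the last iron-sulfur cluster before ubiquinone, had a stop codon peak of lower fold. Its line of smallest FDR covered 88 bases of a transcript without coding annotation (chr10:80256707-80256794, plus strand, 1.47-fold, FDR 1.58e-15), and lines of 88 and 90 bases on its protein-coding transcripts covered the same place. Ndufa3 and Ndufa9, which has a dehydrogenase fold, had stop codon peaks of up to 172 and of 178 bases. Ndufb11 had one of 147 bases.

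The remaining genes of the CHAPIR list alone had small peaks. Ndufab1 had a 3' UTR peak of 60 bases (chr7:122090793-122090852, minus strand) at an authors' fold of 10.6 and FDR of 1.26e-13. Ndufb4 and Ndufb5 had 3' UTR peaks of 89 and 61 bases. Ndufa1 had a 3' UTR peak of 91 bases and a start codon peak of 60 bases. Ndufa7 rested on 1 line of 57 bases on a transcript without coding annotation, at an FDR of 0.0195. With peaks of at least 100 bases only, the CHAPIR list alone therefore kept 9 genes in place of 15, and 20 genes were still in both lists. At this setting 29 subunit genes were left, and 15.0% of all genes were in the CHAPIR list only. RefSeq names copies of Ndufab1 and Ndufb4, and of the shared genes Ndufa12, Ndufs5 and Ndufs6, whose reads may not be separable. Without such genes 13 genes were in the CHAPIR list only and 17 in both lists.

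Subunit genes are short, with a median RefSeq span of 8396 bp against 24081 bp for all genes with a peak, and list membership varied with span among all genes. The CHAPIR list alone held 19.5% of all genes in the shortest of 3 equal groups by span (up to 13777 bp), 14.8% in the middle group and 11.3% in the longest. Of the 24 subunit genes in the shortest group, 9 were in the CHAPIR list only and 15 in both lists. Of the 10 in the middle group, 6 were in the CHAPIR list only, and the 1 in the longest group was in both lists. This split by span was chosen after the values were seen.

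The second comparison asked where on the mRNA the peaks lay. In the CHAPIR list, 49 of 65 distinct subunit peaks on protein-coding transcripts touched the 3' UTR (75.4%, exact interval 63.1 to 85.2), against 55.9% of all peaks in that list. In the NC list 17 of 37 did (45.9%, 29.5 to 63.1), against 41.8% of all. Stop codon peaks made up 44.6% of the subunit peaks in the CHAPIR list and 37.8% in the NC list, where all genes had 17.3% and 18.3%. Peaks wholly in the 3' UTR were 27.7% of the subunit peaks in the CHAPIR list and 8.11% in the NC list, and 38.1% and 22.8% over all genes. Peaks wholly in coding sequence were 12.3% in the CHAPIR list and 27.0% in the NC list, and 37.1% and 50.1% over all genes. The 5' UTR was touched by 10 subunit peaks in each list. These were 15.4% in the CHAPIR list and 27.0% in the NC list, against 7.57% and 8.75% over all genes. In the NC list they came from Ndufa8, Ndufs1, Ndufs6 and Ndufv1 alone. In the CHAPIR list they came from Ndufa1, Ndufa5, Ndufa8, Ndufa13, Ndufs6 and Ndufv1. Peaks on overlapping transcripts of a gene repeat each other, so these intervals are too narrow. A count of 1 peak per gene took the line of smallest FDR and kept it only on a protein-coding transcript. It held 27 of 35 genes in the CHAPIR list and 13 of 20 in the NC list. Ndufa12, Ndufb2, Ndufb7, Ndufb10 and Ndufs1 dropped out in both lists. Ndufa7, Ndufa10 and Ndufs7 also dropped out in the CHAPIR list, and Ndufs4 and Ndufv1 in the NC list. With 1 peak per gene the subunit stop codon share was 55.6% in the CHAPIR list (35.3 to 74.5), against 21.7% over all genes. In the NC list it was 53.8% (25.1 to 80.8), against 25.0% over all genes, and the interval began next to that share. Counted this way, the 5' UTR was touched in 14.8% in the CHAPIR list (4.19 to 33.7), against 5.88% over all genes. In the NC list it was 15.4% (1.92 to 45.4), against 8.41%, and both intervals held the share over all genes.

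**Figure D2:**
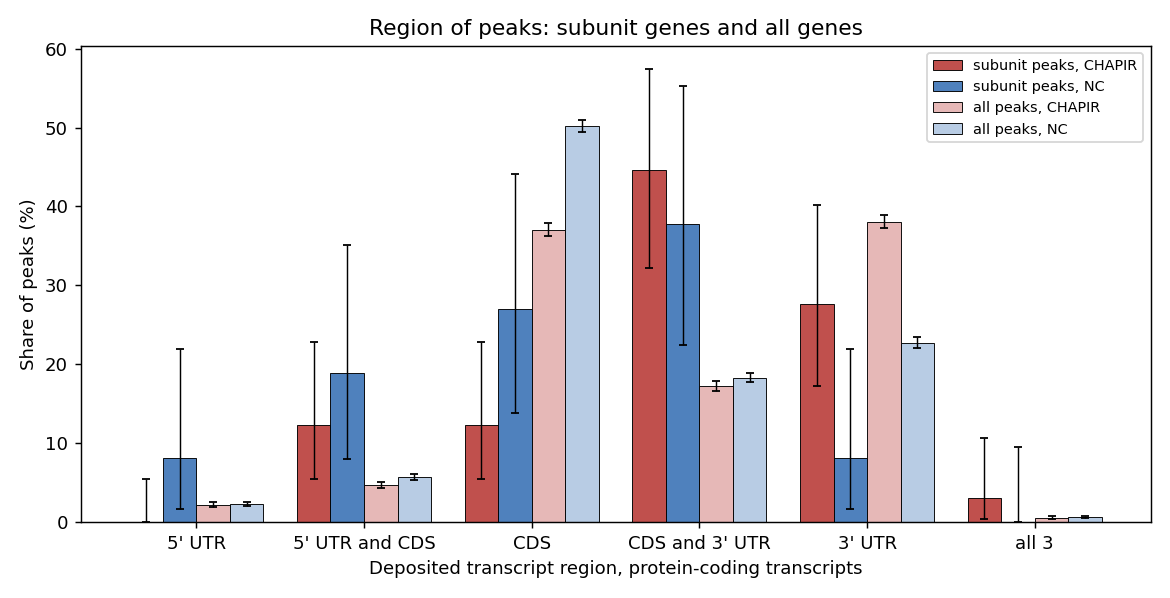
Bars give the percent of distinct peaks on protein-coding transcripts in each deposited region (CDS, coding sequence) for subunit genes and for all genes in each list, with exact 95% intervals for counting error only. The stop codon class (CDS and 3' UTR) reached 44.6% and 37.8% for subunit genes in the CHAPIR and NC lists and 17.3% and 18.3% for all genes.

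On protein-coding transcripts, 14 of the 15 genes in the CHAPIR list alone had peaks, and Ndufa7 had none. These peaks lay almost wholly at the 3' side, with 20 of 22 touching the 3' UTR (90.9%, 70.8 to 98.9). Among the genes in both lists, 29 of 43 CHAPIR peaks did (67.4%, 51.5 to 80.9). Some of the 22 repeat a place, as on the transcripts of Ndufa4. No such share over all genes in the CHAPIR list only is given here. Ndufv1 and Ndufs1, which have many transcripts, weighed on the NC share. Without them 83.6% of 55 CHAPIR peaks and 65.4% of 26 NC peaks touched the 3' UTR, a choice made after the values were seen. With 1 peak per gene 92.6% of 27 CHAPIR peaks (75.7 to 99.1) and 69.2% of 13 NC peaks (38.6 to 90.9) touched the 3' UTR, against 70.9% and 55.4% over all genes counted the same way, so the NC interval held the share over all genes.

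Counted by gene, the difference among the 20 shared genes ran one way. Peaks touched the 3' UTR in both lists for 13 of them, and in the CHAPIR list only for 6 (Ndufa8, Ndufa12, Ndufb9, Ndufs1, Ndufv1 and Ndufv3). None did so in the NC list only. Over all 3557 shared genes the counts were 2214 in both lists, 358 in the CHAPIR list only and 250 in the NC list only. Ndufs6, a zinc-binding subunit of the N module, touched the 3' UTR in neither list, and its peaks ran from the 5' UTR into coding sequence in both.

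Many of these peaks reached the very end of the gene. A peak edge lay within 30 bases of the RefSeq 3' end in 24 of 35 subunit genes in the CHAPIR list (68.6%, 50.7 to 83.1), against 31.6% of all genes. In the NC list this held for 9 of 20 (45%, 23.1 to 68.5), against 11.8% of all genes. The median distance from the nearest peak edge to the 3' end was 4 bases for subunit genes in the CHAPIR list and 101 bases in the NC list, and 648.5 and 1460 bases over all genes. In the CHAPIR list the genes farthest from their 3' end were Ndufa7 (8638 bases) and Ndufab1 (3978 bases). Distances are on the genome and include introns, and this measure was chosen after the values were seen.

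**Figure D3:**
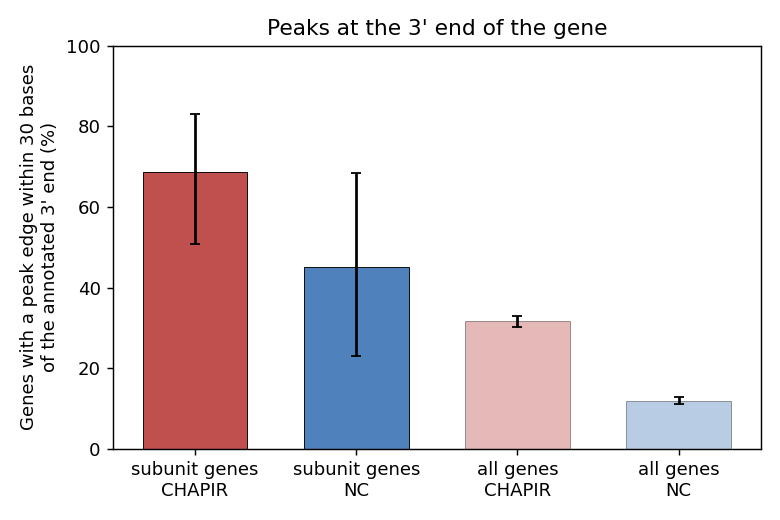
Bars give the percent of genes with a peak edge within 30 bases of the RefSeq 3' end, with exact 95% intervals for counting error only. Subunit genes stood at 68.6% in the CHAPIR list and 45% in the NC list, and all genes at 31.6% and 11.8%.

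The third comparison asked whether the peaks differed in width and place between the lists. Distinct subunit peaks had a median of 175 exonic bases in the CHAPIR list (exact interval 148 to 209, range 57 to 536, 96 peaks) and 235 in the NC list (211 to 267, range 60 to 710, 56 peaks). Over all peaks the medians were 181 and 238 bases. Within a region the gap between subunit peaks and all peaks varied, and some medians rest on few subunit peaks. Stop codon peaks of subunit genes had medians of 178 bases in the CHAPIR list (29 peaks) and 231.5 in the NC list (14 peaks). Over all genes these were 271 and 359. Peaks wholly in the 3' UTR had 119 bases (18 peaks) and 180 bases (3 peaks), against 151 and 180. The equal NC medians mean little with 3 peaks. Peaks wholly in coding sequence had 151 bases (8 peaks) and 247.5 bases (10 peaks), against 210 and 239. The genes in the CHAPIR list alone had the narrower peaks, with a median of 118 bases (29 peaks), and the shared genes had 211 in that list (67 peaks). Peaks of a single exonic block made up 58.3% of the subunit peaks in the CHAPIR list and 25.0% in the NC list, against 68.0% and 55.0% over all peaks. An authors' FDR at or under 1e-05 was reached by 86.5% of subunit peaks in the CHAPIR list, against 61.9% of all, and by 92.9% in the NC list, against 56.4% of all. Their authors' folds were nevertheless low, with a median of 2.65 in the CHAPIR list, against 3.86 over all peaks, and of 2.44 in the NC list, against 3.50 over all peaks.

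Peaks overlapped between the lists in 19 of the 20 shared genes, against 90.6% of all shared genes, and Ndufv3 was the exception. An NC peak overlapped 52 of the 97 CHAPIR lines (53.6%, against 72.3% over all genes), and a CHAPIR peak overlapped 51 of the 56 NC lines (91.1%, against 50.5%). Both shares depend on list membership, since the 15 genes in the CHAPIR list only had no NC peak of their own. No subunit gene was in the NC list only, against 31.3% of all genes. The shares are therefore not a separate result about position. For shared positions, widths were compared on the same transcript. Of 49 overlapping pairs, the CHAPIR peak was wider in 19, equal in 10 and narrower in 20. Over all genes the CHAPIR peak was wider in 20.9% of 11825 pairs and narrower in 71.0%. The median difference, CHAPIR minus NC, was 0 bases for subunit genes and -90 bases over all genes. The median widths behind it were 239 bases in the CHAPIR list and 237 in the NC list for subunit genes, and 239 and 376 over all genes. Pairs on transcripts of 1 gene share their reads.

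By gene, every pair was wider in the CHAPIR list for 8 genes (Ndufa2, Ndufa5, Ndufa8, Ndufa10, Ndufa13, Ndufb2, Ndufb3 and Ndufb10) and narrower for 4 (Ndufs1, Ndufv1, Ndufb9 and Sdhd). Ndufa6, of the LYR family that binds the acyl carrier protein, had the same peak of 207 bases in both lists, and 6 genes were mixed. Of the 98 edges of these pairs, 40 were identical, 23 differed by 29 to 31 bases and the rest differed by other amounts. A difference of 29 to 31 bases is called 1 step here.

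**Figure D4:**
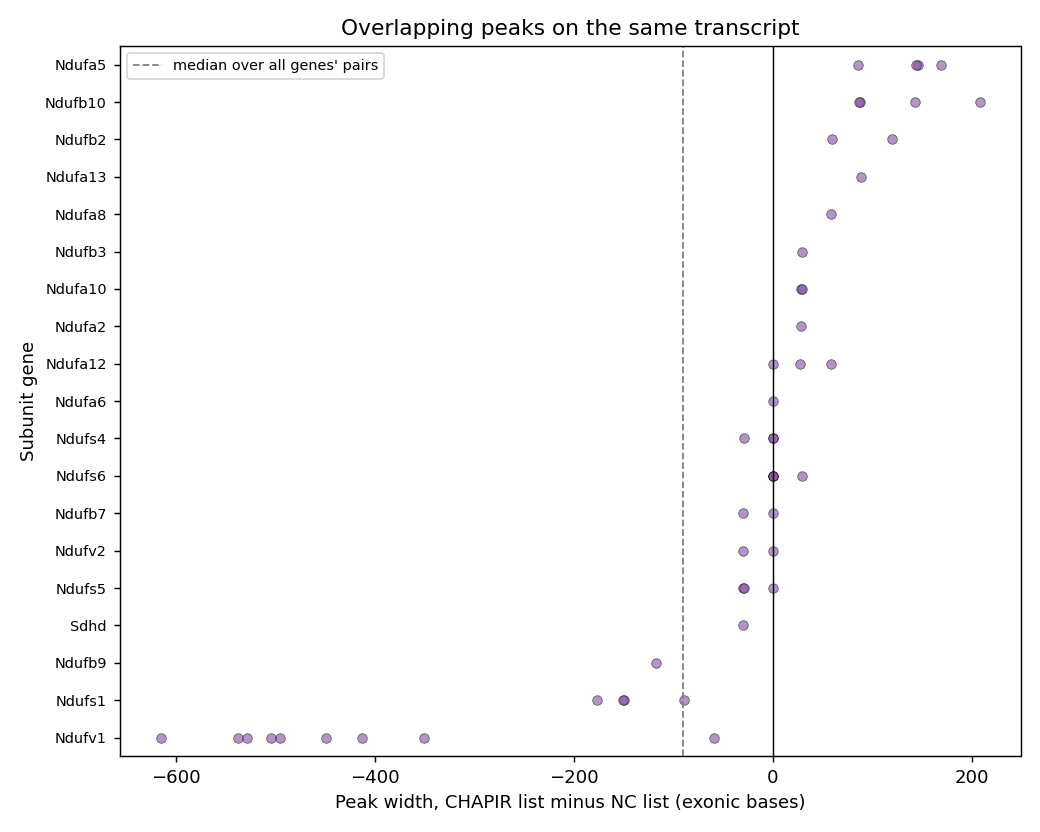
Each point is 1 pair of overlapping peaks on the same transcript, with the width in the CHAPIR list minus the width in the NC list in exonic bases (horizontal axis) for each of 19 shared genes (vertical axis). The dashed line marks the median over all genes' pairs (-90 bases), and Ndufv1 and Ndufs1 lie farthest to the left.

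Among the core subunits of the N module, Ndufv1 holds the site where NADH is oxidised, and it had the largest width differences of the 19 genes. In the CHAPIR list its line of smallest FDR was a stop codon peak of 149 to 151 bases on its protein-coding transcripts (chr19:4007497-4007647, minus strand, 2.60-fold, FDR 3.98e-20), which the NC list lacked. Upstream, the CHAPIR peaks covered 88 to 211 bases on protein-coding transcripts and the NC peaks 438 to 660 bases. The NC line of smallest FDR lay in that upstream stretch (chr19:4010001-4011329, 237 bases on a transcript without coding annotation, 3.17-fold, FDR 3.16e-72). Over its 9 same-transcript pairs the width difference, CHAPIR minus NC, ran between -615 and -59 bases. On 1 transcript 2 separate CHAPIR peaks, of 147 and 60 bases, were each paired with the same NC peak of 675 bases. The smaller one gave the -615.

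Ndufs1, the largest core subunit and a carrier of iron-sulfur clusters, also had its middle peak in both lists. On protein-coding transcripts it covered 509 and 536 bases in the CHAPIR list, against 658 and 686 bases in the NC list. The line of smallest FDR was at 1.89-fold in the CHAPIR list (chr1:63159730-63164805, minus strand, 532 bases, FDR 3.16e-21) and at 2.31-fold in the NC list (chr1:63157186-63164999, 710 bases, FDR 2.51e-84). Each list then had a peak that the other lacked. The CHAPIR list had a 3' UTR peak of 150 bases (chr1:63143596-63143745, 4.20-fold, FDR 3.98e-20), and the NC list had 5' UTR peaks of 60 to 119 bases on 3 transcripts, the smallest FDR being 7.08e-07. The opposite-strand RNA gene Ino80dos overlaps the middle Ndufs1 peak, and the NC list holds a peak on it there. The sources used here do not say if the caller used strand, so reads of these genes cannot be told apart.

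Ndufv2, the third core subunit of the module, had a stop codon peak in both lists that ended at the same base. Its line of smallest FDR covered 178 bases in the CHAPIR list (chr17:66079417-66080817, minus strand, 1.92-fold, FDR 6.31e-20) and 208 bases in the NC list (chr17:66079417-66080847, 1.55-fold, FDR 3.16e-24). On its other transcript both lists gave 150 bases.

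Ndufv3, an accessory subunit beside the NADH site, had peaks at separate places. In the CHAPIR list a stop codon peak of 172 bases (chr17:31531152-31531323, plus strand) stood at 2.99-fold and an FDR of 3.98e-64, and it was present on 2 protein-coding transcripts. A further 3' UTR peak of 59 bases lay on another transcript. In the NC list the peak lay in coding sequence upstream (chr17:31527850-31528086, 237 bases, 3.22-fold, FDR 1e-11), on 1 of those transcripts, ENSMUST00000046288.14, which thus had a peak at a different place in each list. Ndufb9, of the LYR family in the membrane arm, was similar in part. It had a stop codon peak of 118 bases in the CHAPIR list, and a coding peak of 235 bases that overlapped the start of it in the NC list. The NC peak also overlaps a peak listed on another gene, AC158777.2, and their reads may not be separate.

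**Figure D5:**
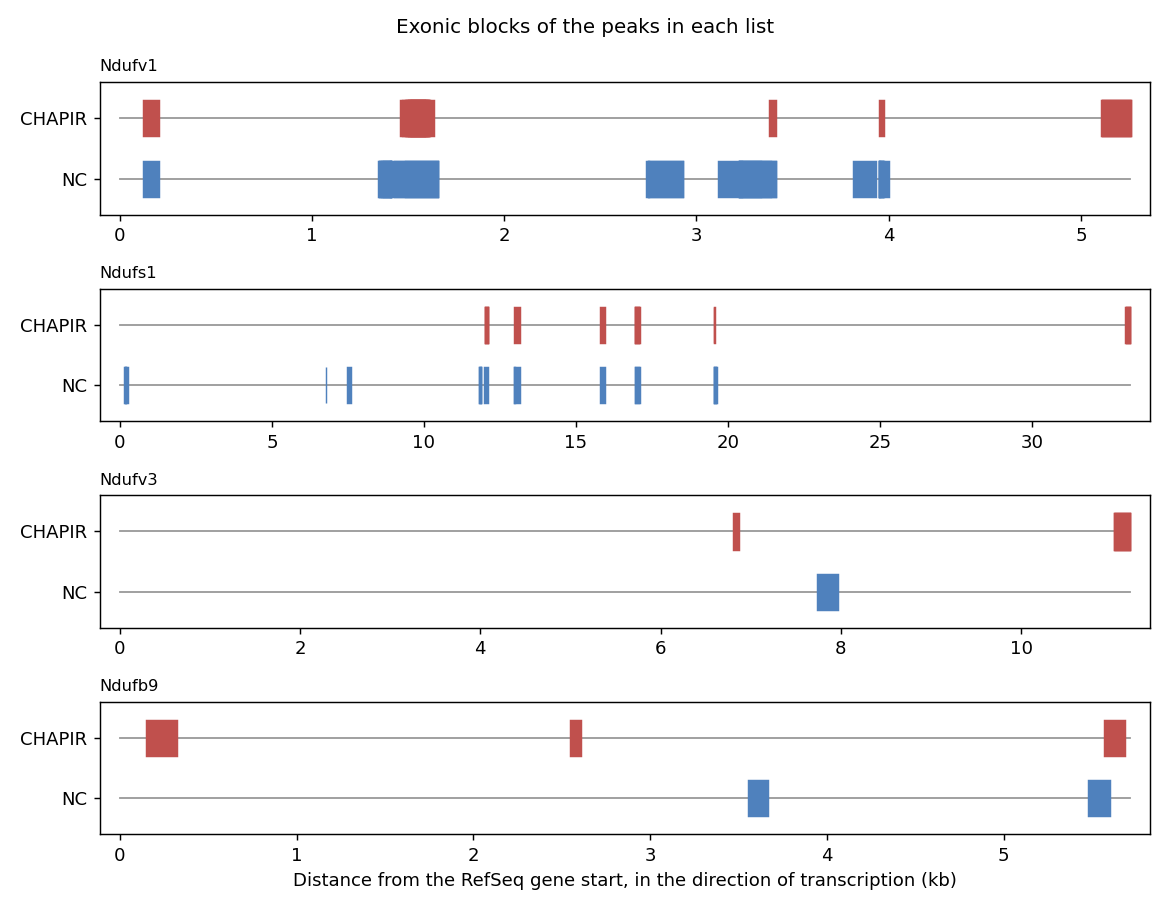
Exonic blocks of all peaks of Ndufv1, Ndufs1, Ndufv3 and Ndufb9 in the CHAPIR list (above) and the NC list (below), by distance from the RefSeq gene start in kb in the direction of transcription. In all 4 genes a block near the right end is present in the CHAPIR list, and the NC list has none at that place except in Ndufb9, where its last block starts earlier.

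Other accessory genes of the N module had overlapping peaks in both lists. Ndufs4, whose loss gives a mouse model of Leigh syndrome, had a peak of 388 bases into the 3' UTR in both lists, shifted by 1 step. Ndufa2 had a stop codon peak of 229 bases in the CHAPIR list and 200 in the NC list. The Ndufs6 peak whose edge is printed above covered 269 bases in each list, and the extra NC bases reach into the RefSeq span of the neighbouring gene Mrpl36. Ndufa12 had its coding peak in both lists, of 211 bases on the transcript printed above, and in the CHAPIR list a further 3' UTR peak of 90 to 150 bases. In the Q module, Ndufa5 had a peak into the 3' UTR of 315 to 380 bases on protein-coding transcripts in the CHAPIR list, against 229 to 234 bases in the NC list.

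The membrane arm held the highest authors' folds among the subunit genes. Ndufb3 had a stop codon peak of 265 bases in the CHAPIR list (chr1:58595700-58595964, plus strand, 32.3-fold, FDR 1e-113) and of 235 bases with the same end in the NC list (chr1:58595730-58595964, 4.16-fold, FDR 2.00e-45). Ndufb2 had 20.2-fold in the CHAPIR list on a retained-intron transcript (chr6:39598273-39598543, plus strand, 271 bases, FDR 7.94e-100), against 2.44-fold in the NC list on the same transcript (chr6:39598303-39598513, 211 bases, FDR 2.57e-08). Ndufb7, a cysteine-motif protein of the intermembrane space, had the highest fold of the subunit genes in the NC list. Its line of smallest FDR covered 211 bases in the CHAPIR list (chr8:83570982-83571626, plus strand, 6.22-fold, FDR 1e-182) and 241 bases in the NC list (chr8:83570952-83571626, 5.14-fold), where the FDR is written as 0 because it is too small to be given. Ndufs5, another such protein, had a peak of 292 bases in both lists on the same transcript, with the same ends (chr4:123712710-123715938, minus strand), at 5.96-fold and an FDR of 1e-14 in the CHAPIR list and 3.72-fold and an FDR of 7.94e-22 in the NC list.

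Peaks of further membrane arm genes were wider in the CHAPIR list. Ndufa13, also known as GRIM-19, had a peak of 507 bases from the 5' UTR to the 3' UTR in the CHAPIR list, against 418 bases without the 5' UTR in the NC list. Ndufb10 covered 264 bases at the stop codon in the CHAPIR list, against 176 bases in the NC list. Ndufa10 covered 209 bases of the 3' UTR in the CHAPIR list, against 180 in the NC list, and had a further 3' UTR peak of 120 bases in the CHAPIR list. Ndufa8 covered 238 bases from the 5' UTR into coding sequence in the CHAPIR list, against 179 in the NC list, and had a 3' UTR peak of 120 bases in the CHAPIR list only.

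Other genes that serve the same enzymes were counted from lists, to be read against the 15.3% of all genes in the CHAPIR list only, 53.5% in both and 31.3% in the NC list only. Of 20 assembly factors of complex I, which build the enzyme but are not part of it, 14 had a peak. None was in the CHAPIR list only, 11 were in both lists, and Acad9, Foxred1 and Tmem186 were in the NC list only. Of 4 assembly factors of complex II, Sdhaf1 and Sdhaf2 had a peak, in both lists. Of the 7 complex I subunits that mitochondrial DNA encodes, mt-Nd1 was in the CHAPIR list only and 6 were in both. Of 17 genes of the tricarboxylic acid cycle and the electron transfer flavoprotein, 7 were in the CHAPIR list only (Cs, Idh2, Idh3b, Idh3g, Ogdh, Mdh2 and Etfdh), 10 in both and none in the NC list only. Among 30 subunits of complexes III, IV and V found by name, 15 were in the CHAPIR list only, 14 in both and 1, Atp5l, in the NC list only.

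The tissue label was checked with marker genes, which show peaks and not levels. All 10 cardiomyocyte markers had a peak, 8 in both lists and Actc1 and Nppa in the CHAPIR list only. The same shares over all genes apply to markers of other cells. All 4 atrial markers (Myl4, Myl7, Sln and Nppa, which is also among the cardiomyocyte markers) were in the CHAPIR list only, as were 5 of the 8 macrophage markers with a peak. Of 5 adipocyte markers with a peak, Adipoq, Plin1, Cfd and Cidea were in the NC list only. Fibroblast markers split 1, 4 and 1 over the CHAPIR list only, both lists and the NC list only, and endothelial markers split 1, 3 and 1. Their part in the result was not tested, and in bulk samples fewer cells of a type and less RNA per cell cannot be told apart.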

How the data were processed

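Per the labels' protocols, reads were aligned with HISAT2 and peaks were called with exomePeak. HISAT2 2.1.0 and GRCm38 are named per the submitters' processing notes. The sources used here do not give the caller's version, options, threshold or use of strand. The fold is a ratio of immunoprecipitated to input signal, deposited by the authors with its p-value and FDR. Depth is unknown. Deposited starts count from 0 and were raised by 1 base.

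Distinct peaks are lines of a gene with the same exonic blocks. Overlap was at least 1 exonic base on the same strand, by bedtools 2.31.1. Intervals are exact (Clopper-Pearson for shares, order statistics for medians) at 95%. Python 3.11.15, pandas 2.3.3, numpy 2.4.6, scipy 1.17.1 and matplotlib 3.10.9 were used, and the overlap step was tested on simulated data. RefSeq matched all 35 genes by symbol for spans and 31 for sequences around gene starts.

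Members, gene lists and alternatives were chosen with earlier results of these data known. Full values are given for the peak of smallest FDR of Sdh genes, core subunits, the 5 genes in 1 list only of smallest FDR, the 3 of highest fold in each list, and Ndufv3. Details of other genes were chosen after their values were seen. Some genes that the naming rule takes are not reported here.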

Additional observations from a re-analysis of the deposited data

How the results depend on the processing

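Of 73 recomputed values, 59 stayed close to the reported ones and 14 moved. The share wholly in coding sequence was lower in the CHAPIR list than in the NC list as reported, but higher with a fold of at least 4, where 3 NC peaks were left. The number of subunit genes in the NC list only was 0 under every alternative run, beside 19.6% (lists of equal length) to 33.7% (fold of at least 4) of all genes. With peaks of at least 100 bases, 9 of 29 genes were in the CHAPIR list only, beside 15.0% of all genes. Among genes of the shortest span the number was also 9, by construction, since fewer genes were counted. At a fold of at least 4 the number was 13 of 17, beside 29.7% of all genes, but these were largely other genes. Of the 15 genes as reported, only Ndufa4, Ndufab1, Ndufc2 and Sdhc had a peak at this fold. The rest of the 13 were shared genes whose NC peaks fell below it, and the folds are not scaled between lists. With a fold of at least 4, 4 genes were in both lists and 3 of them overlapped, 66.7% of 3 NC peaks touched the 3' UTR, 4% of CHAPIR peaks and 0% of NC peaks lay wholly in coding sequence, and the median CHAPIR width was 229 bases. With 1 peak per gene, 92.6% of CHAPIR and 69.2% of NC peaks touched the 3' UTR and 0% of CHAPIR peaks lay wholly in coding sequence. These shares cover only the 27 and 13 genes whose leading peak was on a protein-coding transcript. Without Ndufv1 and Ndufs1, 65.4% of NC peaks touched the 3' UTR. The median CHAPIR width was 211 bases over shared genes, and the median NC width was 2592 bases as a genomic span with introns. For lists of equal length 15 genes were in the CHAPIR list only, beside 24.1% of all genes, and at an FDR at or under 1e-05 it was 13, beside 18.4%. Settings without members with a named copy, without Ndufv1 and Ndufs1, by span and by merged peaks were chosen after seeing the data. No paired analysis was possible because each condition had 1 library of each kind.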
